A study of Homo sapiens with 6 samples.

Results

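Antisense transcripts are RNAs made from the DNA strand opposite a named gene, and their symbols carry that gene's name followed by -AS and a number. This account covers the 176 such transcripts that were expressed in HMCB melanoma cells, together with the genes they are named after. They were chosen by level: at least 2 TPM (transcript copies scaled to a fixed total per library, the deposited unit) in at least 3 of the 6 libraries, which 176 of the table's 1001 antisense-named rows and 26902 rows reached. The rule leaves out 1 further row by name. A partner row was present for 170 of the transcripts, as 167 different genes, since some genes have more than 1 antisense transcript. HMCB is a single human melanoma line given in the labels as NRAS Q61K. Its cells were transfected either with a control siRNA, giving the 3 libraries called siNC, or with siRNA that silences AHCYL1, giving the 3 called siAHCYL1, and were harvested 3 days later. All 6 libraries share the line and a transfection, and the sources used here do not give the number of siRNA sequences. By its design the study asks how AHCYL1 favours the growth of melanoma cells with mutant NRAS.

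Antisense transcripts are mostly long noncoding RNAs. Many start within or beside the promoter of the partner, because promoters can fire in both directions, and others begin further inside or beyond the gene and run across it. Some are known to raise or lower the partner's transcription, splicing or RNA stability, others act away from their locus, and for most no function is established. Nuclear decay enzymes remove many of them soon after they are made, so their steady level is usually low. The libraries were not strand-specific: where exons of both genes cover the same bases, a read cannot be given to one strand, and the deposited level then rests on the authors' estimation.

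The siRNA target was measured first. AHCYL1, also known as IRBIT, a partner of the IP3 receptor calcium channel, stood at 150.02, 134 and 131 TPM in siNC libraries 1 to 3 and at 13.4, 11.1 and 11 TPM in siAHCYL1 libraries 1 to 3. It fell by 3.44 on the log2 scale (SE 0.10, limma adjusted p = 5.64e-08), and the exact two-sided permutation p was 0.1, the smallest that 3 libraries against 3 allow. Of 13266 genes tested across the whole table, 6844 (51.6%) changed, 30.4% of all tested being higher and 21.2% lower, so a change in an antisense transcript has to be read against a broad shift. The 8 melanocytic markers summed to between 1061 and 1085 TPM in siNC libraries and between 1036 and 1078 TPM in siAHCYL1 libraries, nearly all of it SOX10, and TYR was listed at 0 throughout. Under that sum 4 of the 6 tested markers changed: DCT fell from 10.8, 11.5 and 11.9 TPM to 0.24, 0.15 and 0.62 TPM, S100B rose from 10.2, 11.3 and 10.6 TPM to 32.3, 28.6 and 26.1 TPM, and the scarcer TYRP1 and PMEL rose by 0.87 and 0.64 on the log2 scale. The 4 keratinocyte and epithelial markers never summed above 2.07 TPM, with KRT5 and CDH1 at 0. Fibroblast markers summed to 15.3 to 17.9 TPM in siNC and 26.1 to 32.4 TPM in siAHCYL1 libraries, nearly all LUM with PDGFRA at 0, while COL1A1 fell from 1.64, 2.4 and 2.5 TPM to 0.68, 0.21 and 0.59 TPM. Immune markers summed to 3.71 to 3.92 and 7.62 to 11.1 TPM, mostly PTPRC with CD3E and HBB at 0, and endothelial markers to 8.81 to 11.2 and 6.26 to 7.19 TPM, mostly KDR with VWF at 0. The part of these markers in the results was not tested. Replicates are labelled as biological, yet no source names their cultures, so the p-values speak only to the spread among these 6 libraries and part of it may be technical. TPM keeps no read depth, so the counting error of a low transcript is unknown.

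A few stretches of DNA are printed here, taken from RefSeq (build GRCh38.p14), in which 137 of the 176 transcripts matched a promoter window. The stretches were picked from the expression results, and a link of any change to their sequence was not tested. The first 6 are shared promoters where the antisense transcript and the partner start head to head. Each is written 5′ to 3′ on the antisense strand, with the bases between the starts in capitals. The last 20 bases, in lower case, begin the antisense transcript, and the first 20, also in lower case, are the complement of the partner's own beginning. In the first 4, antisense transcript and partner moved apart. They are those with the largest change of the antisense to partner ratio among the 28 pairs of this kind. SCAMP1-AS1 lies at chr5:78360522-78360636 (minus strand) (75 bases between the starts), RAB30-AS1 at chr11:83071878-83072085 (plus strand) (168 bases), SRP14-AS1 at chr15:40039183-40039330 (plus strand) (108 bases) and OSER1-AS1 at chr20:44210752-44210979 (plus strand) (188 bases).
SCAMP1-AS1: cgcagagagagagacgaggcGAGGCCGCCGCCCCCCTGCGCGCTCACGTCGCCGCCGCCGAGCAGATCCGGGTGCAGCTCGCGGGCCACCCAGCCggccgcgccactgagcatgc
RAB30-AS1: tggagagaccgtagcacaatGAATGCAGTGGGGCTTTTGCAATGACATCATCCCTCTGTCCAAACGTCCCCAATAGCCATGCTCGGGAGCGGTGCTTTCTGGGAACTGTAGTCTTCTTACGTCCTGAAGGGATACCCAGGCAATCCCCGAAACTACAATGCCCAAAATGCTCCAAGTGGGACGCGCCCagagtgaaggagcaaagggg
SRP14-AS1: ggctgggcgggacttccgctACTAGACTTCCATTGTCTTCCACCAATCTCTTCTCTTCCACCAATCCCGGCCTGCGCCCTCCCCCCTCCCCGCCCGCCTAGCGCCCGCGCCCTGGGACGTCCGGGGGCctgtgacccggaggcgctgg
OSER1-AS1: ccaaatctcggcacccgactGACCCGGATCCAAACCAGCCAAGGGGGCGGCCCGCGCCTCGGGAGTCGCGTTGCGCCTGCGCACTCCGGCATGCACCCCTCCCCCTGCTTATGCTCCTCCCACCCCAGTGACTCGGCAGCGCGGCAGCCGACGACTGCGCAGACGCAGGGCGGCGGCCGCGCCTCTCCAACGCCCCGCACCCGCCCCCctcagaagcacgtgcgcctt

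Both members of the next pairs changed alike and, on the log2(TPM + 1) scale, by the most similar amounts among such pairs. HHIP ended near 0 TPM, where that scale understates a fall, so its fall and that of HHIP-AS1 were not equal in TPM. MAN1B1-AS1 lies at chr9:137086798-137087004 (minus strand) with 167 bases between the starts, and HHIP-AS1 at chr4:144646000-144646175 (minus strand) with 136 bases. The ratio difference of MAN1B1-AS1 was 0.08 on the log2 scale (SE 0.22). Both transcripts met the level rule through 1 group only. The call of MAN1B1-AS1 was lost without siNC 2 or siAHCYL1 2 (limma adjusted p up to 0.0639).
MAN1B1-AS1: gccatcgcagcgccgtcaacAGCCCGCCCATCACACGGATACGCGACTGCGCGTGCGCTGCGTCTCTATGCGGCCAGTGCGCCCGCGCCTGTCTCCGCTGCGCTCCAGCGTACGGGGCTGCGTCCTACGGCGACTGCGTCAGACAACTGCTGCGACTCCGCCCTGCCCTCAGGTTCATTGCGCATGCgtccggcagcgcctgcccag
HHIP-AS1: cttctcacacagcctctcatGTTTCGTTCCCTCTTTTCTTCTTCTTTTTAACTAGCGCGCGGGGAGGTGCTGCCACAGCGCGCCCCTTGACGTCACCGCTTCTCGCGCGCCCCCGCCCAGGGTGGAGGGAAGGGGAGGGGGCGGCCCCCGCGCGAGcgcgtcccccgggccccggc

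HECTD2-AS1 had the largest rise and is shown at chr10:91611411-91611560 (minus strand), with the 50 bases from its start in capitals and 100 bases before them in lower case. PCNA-AS1 had the highest level and is shown by its first 50 bases, at chr20:5119586-5119635 (plus strand), all in capitals. All 50 lie in the coding sequence of PCNA, and their reverse complement was found in both of the 2 annotated PCNA transcripts.
HECTD2-AS1: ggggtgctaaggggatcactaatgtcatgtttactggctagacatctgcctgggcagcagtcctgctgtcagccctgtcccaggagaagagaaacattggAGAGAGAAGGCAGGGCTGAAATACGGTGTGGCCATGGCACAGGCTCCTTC
PCNA-AS1: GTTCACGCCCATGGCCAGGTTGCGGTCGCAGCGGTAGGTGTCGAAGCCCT

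Most of the antisense transcripts were scarce. Their mean over the 6 libraries ran from 1.63 to 564 TPM with a median of 4.61 TPM, 137 stayed under 10 TPM, and the median of the partners was 28.3 TPM. In 39 of 170 pairs the antisense transcript nevertheless stood above its partner. Of the 176, 101 reached 2 TPM in all 6 libraries. At the edge of the rule, DLX6-AS1, SNAI3-AS1 and SEMA6A-AS1 were just inside with 2.01, 2.05 and 2.07 TPM in the library ranked 3 of 6. GAS5-AS1, GCC2-AS1 and C1QTNF1-AS1 were just outside at 1.95, 1.93 and 1.93 TPM.

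**Figure D1:**
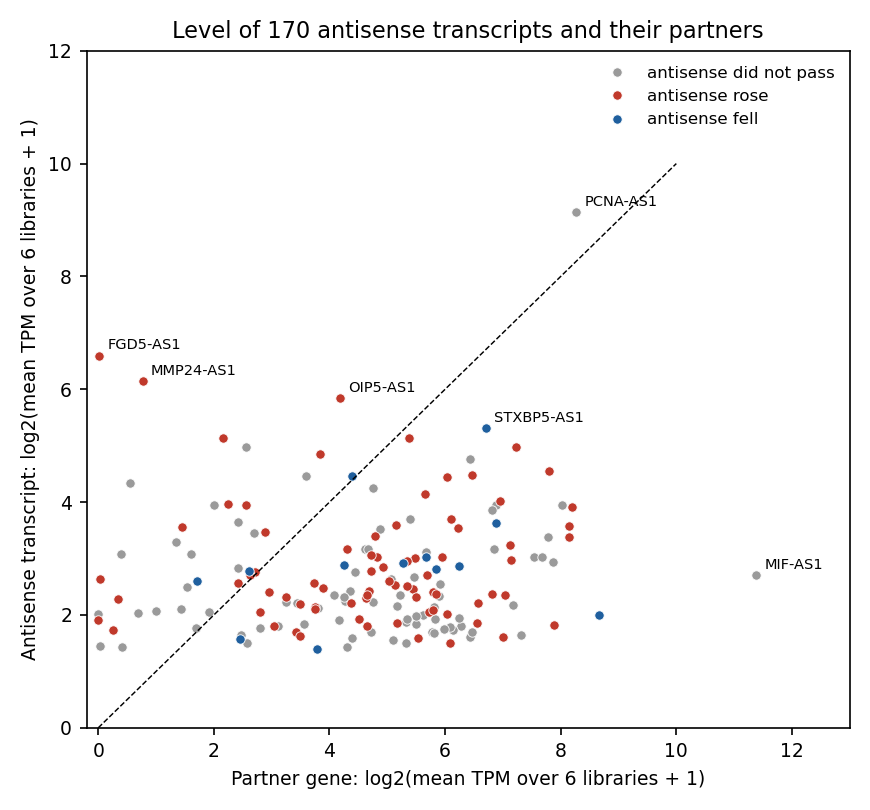
Mean level over the 6 libraries, as log2(TPM + 1), of 170 antisense transcripts (vertical axis) against their partner genes (horizontal axis), 1 point per transcript, coloured by whether the transcript rose, fell or did not pass the test. The 39 points above the dashed line of equal level include PCNA-AS1, FGD5-AS1, MMP24-AS1 and OIP5-AS1.

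The most abundant 5 were PCNA-AS1, FGD5-AS1, MMP24-AS1, OIP5-AS1 and STXBP5-AS1. PCNA-AS1 (chr20:5119586-5119969, plus strand, RefSeq) measured 645, 434 and 397 TPM in siNC and 644, 603 and 659 TPM in siAHCYL1 libraries. PCNA, the sliding clamp of the replication fork, measured 284, 252 and 254 TPM (siNC) and 385, 350.4 and 325 TPM (siAHCYL1), so the antisense row stood above the gene in each library. PCNA rose by 0.42 on the log2 scale (SE 0.08, adjusted p = 0.00169), and PCNA-AS1, whose first control library lay as high as the siAHCYL1 libraries, had a similar difference of 0.40 (SE 0.15) that did not pass. All 384 bases of PCNA-AS1 lie under exons of PCNA, and in these libraries the pair cannot be told apart. FGD5-AS1 is a widely expressed long noncoding RNA (chr3:14920347-14948424, minus strand, GENCODE v29) that meets the end of FGD5, an endothelial exchange factor for CDC42. It measured 73.8, 73.1 and 62.5 TPM in siNC and 134, 120.1 and 111 TPM in siAHCYL1 libraries, a rise of 0.79 (SE 0.09, adjusted p = 1.18e-04). FGD5 itself was listed at 0 in 5 libraries and at 0.09 TPM in the other and was not tested. MMP24-AS1 spans MMP24, a membrane-type matrix metalloproteinase, and RefSeq now lists it as the protein-coding gene MMP24OS. It measured 37.6, 36.6 and 37.7 TPM in siNC and 106, 97.8 and 101 TPM in siAHCYL1 libraries, the groups lying far apart, and rose by 1.42 (SE 0.07, adjusted p = 7.73e-07). MMP24 stayed between 0.32 and 1.33 TPM and was not tested.

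Antisense transcripts as a group shifted upward after AHCYL1 siRNA. Of the 176, 79 rose (44.9%), 13 fell (7.39%) and 84 did not pass, at an adjusted p under 0.05 in a limma fit of all genes, where 30.4% of genes rose and 21.2% fell. Their median log2 difference was 0.45, beside 0.06 over all genes tested, and 135 of 176 differences were above 0. In 97 of the 176 (55.1%) the 2 groups of libraries did not overlap, beside 59.2% of all genes. A level rule favours transcripts that are high in 1 group: 17 of the 79 that rose reached 2 TPM only in siAHCYL1 libraries and 3 of the 13 that fell only in siNC libraries. The 17 were BOLA3-AS1, C1RL-AS1, CCDC18-AS1, CKMT2-AS1, FOXC2-AS1, HECTD2-AS1, MAN1B1-AS1, MLLT4-AS1, MZF1-AS1, NAPA-AS1, SDCBP2-AS1, SLC25A21-AS1, SRP14-AS1, TAF1A-AS1, TMEM9B-AS1, UGDH-AS1 and ZSCAN16-AS1. The 3 were DLX6-AS1, HHIP-AS1 and ZNF790-AS1. Values given for them below are descriptions, since the rule chose them through the group where they are high. Without those 20, 62 of 156 rose (39.7%) and 10 fell (6.41%), with a median of 0.39. The rule itself kept the groups of the 20 apart, and without them 77 of 156 (49.4%) did not overlap, below the 59.2% of all genes. Of the partner genes, 48 of 155 tested were higher (31.0%) and 29 lower (18.7%), with a median of 0.07. Without siNC library 2 the number of lower partners was 19. Long intergenic noncoding RNAs, named LINC and passing the same level rule, counted 32 of 80 higher (40.0%) and 11 lower (13.8%), with a median of 0.41. Of protein-coding rows that passed the same level rule and averaged at most 30 TPM, 29.1% of 5988 were higher and 21.7% lower. Differences between these sets were not tested. TPM fixes each library's total, and rescaling moved these splits: by median-of-ratios scaling 71 antisense transcripts were higher and 18 lower, 39 partners higher and 40 lower, and 3613 of all genes higher and 3583 lower. With quantile normalization the counts were 70 and 17, 38 and 43, and 3471 and 3743.

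**Figure D2:**
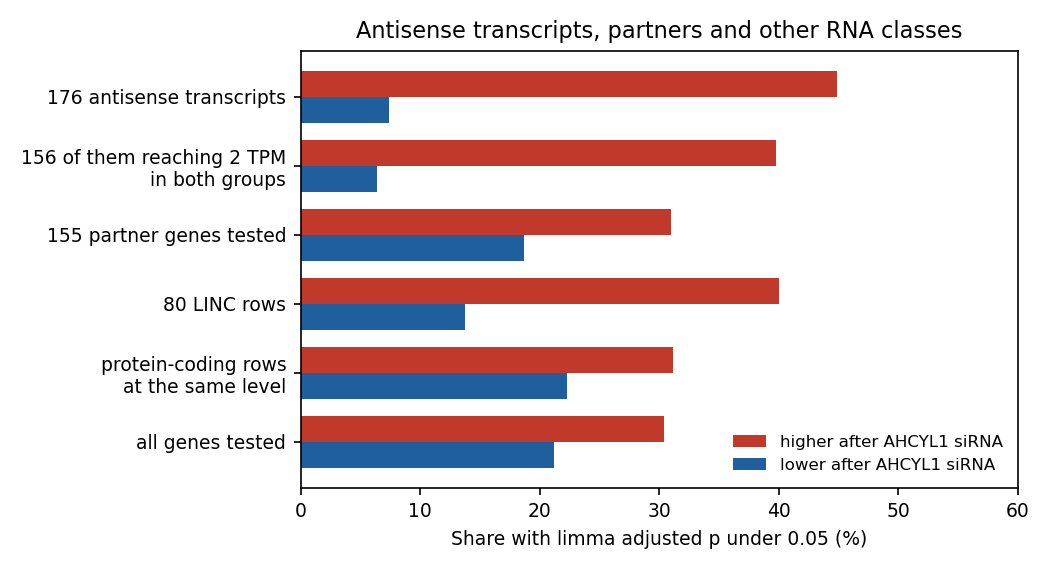
Percent of each set called higher (red) or lower (blue) after AHCYL1 siRNA, by limma at an adjusted p under 0.05. The antisense transcripts show 44.9% higher and 7.39% lower, against 30.4% and 21.2% of all genes tested.

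Per-library summaries of the transcripts leaned the same way, here over the 156 that reached 2 TPM in both groups, since the other 20 were chosen through the group where they are high. The 156 summed to 1750, 1629 and 1581 TPM in siNC libraries 1 to 3 and to 2305, 2259 and 2209 TPM in siAHCYL1 libraries 1 to 3. PCNA-AS1 makes up much of those sums, and without it they were 1105, 1195 and 1185 TPM against 1661, 1655 and 1551 TPM. The median transcript stood at 3.98, 4.25 and 4.31 TPM in the control libraries and at 6.29, 6.19 and 5.93 TPM in the siAHCYL1 libraries. The groups overlapped in none of these summaries, and the level rule chose transcripts on these same libraries.

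The ratio of each antisense transcript to its partner was tested separately, since 1 call beside another does not show that they differ. The per-library log2 ratio was fitted with limma over 2468 pairs of opposite-strand neighbours in the table, of which 47.7% changed. Among the 158 antisense and partner pairs tested, 48 ratios rose and 13 fell, and the median difference was 0.36. The 61 changed ratios are a smaller share than the 47.7% over all pairs. These counts include pairs whose transcript met the level rule through 1 group only, and counts without them were not made. By calls, 29 pairs rose together, 4 fell together, and in 11 the transcript and the gene changed in opposite directions, 10 of them with the antisense transcript higher. In 32 pairs the transcript rose beside a partner that did not pass, and in 18 and 17 pairs the partner rose or fell beside a transcript that did not pass. Across the 158 pairs their changes had a Pearson r of 0.35 and a Spearman rank correlation of 0.26, a description over pairs that share the 6 libraries and, in many cases, exon bases.

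**Figure D3:**
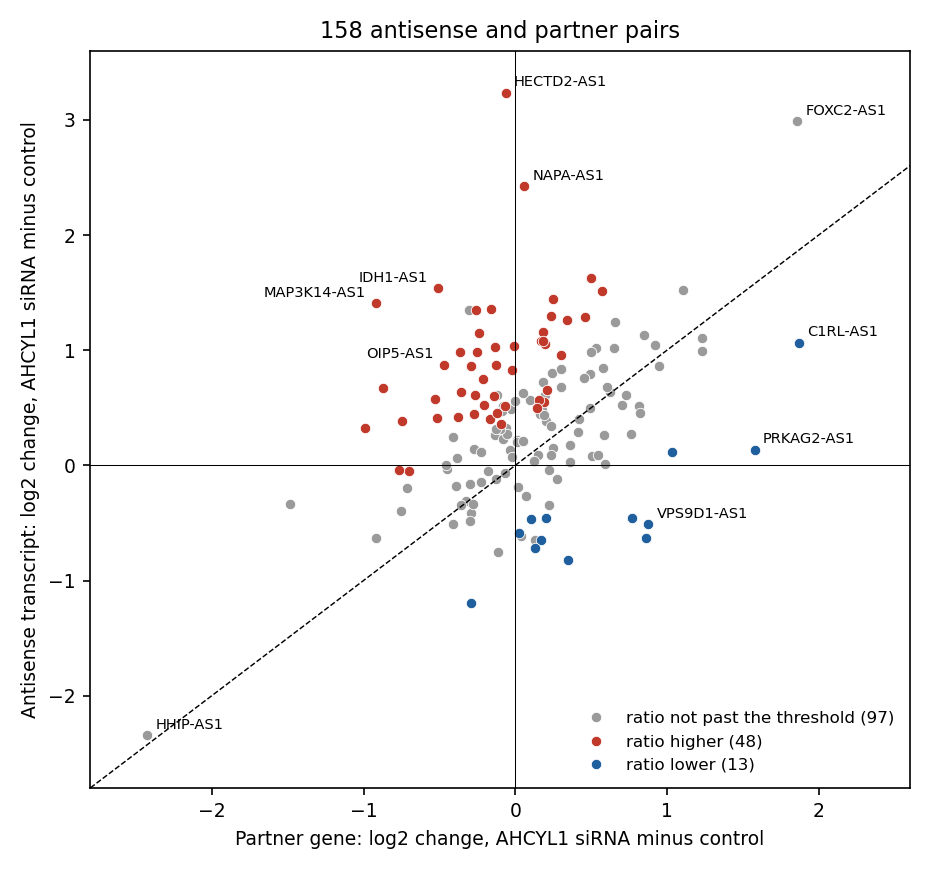
Log2 change of the antisense transcript (vertical) against that of its partner (horizontal) for 158 pairs, siAHCYL1 minus siNC, coloured by the test of the ratio, with equal change on the dashed line. Red points (48) lie above the line and blue points (13) below it, and HHIP-AS1 and its partner lie on it at the lower left.

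The largest rise was that of HECTD2-AS1, which spans the ubiquitin ligase gene HECTD2 (chr10:91306962-91611460, minus strand, RefSeq). It measured 0, 0.35 and 0.58 TPM (siNC) and 12.5, 11.4 and 9.7 TPM (siAHCYL1) and was nearly absent from every control library. HECTD2 measured 6.56, 6.02 and 4.5 TPM in siNC and 6.5, 5.07 and 4.62 TPM in siAHCYL1 libraries, with groups that overlapped. HECTD2-AS1 rose by 3.24 (SE 0.19, adjusted p = 2.62e-06) and the ratio by 3.30 (SE 0.27, adjusted p = 4.49e-05). NAPA-AS1 meets the end of NAPA, which encodes alpha-SNAP, the factor that recycles SNARE complexes after membrane fusion. It measured 0, 1.76 and 0 TPM in siNC and 7.68, 7.51 and 4.79 TPM in siAHCYL1 libraries, above all controls in each siAHCYL1 library. NAPA measured 96.3, 90.9 and 88.6 TPM (siNC) and 106, 89.3 and 92.3 TPM (siAHCYL1) and overlapped between groups. NAPA-AS1 rose by 2.43 (SE 0.37, adjusted p = 5.74e-04) and the ratio by 2.37 (SE 0.39, adjusted p = 0.00129). HECTD2-AS1 and NAPA-AS1 are both among the 20 that reached 2 TPM in 1 group only. The level rule chose them through the siAHCYL1 libraries, so these p-values describe and are no support for a rise.

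A further 9 transcripts at least doubled on the log2(TPM + 1) scale beside a partner that did not pass, and in each the ratio rose. Calls of this size, in either direction, covered 8.36% of all genes tested and 33 of the 176 transcripts, 31 higher and 2 lower. Of those 33, 14 (12 higher, 2 lower) met the level rule only through the group where they are high, and among the 156 that reached 2 TPM in both groups 19 (12.2%) were called at this size, all higher. TAF1A-AS1 measured 1.78, 0.69 and 1.7 TPM in siNC and 2.84, 7.06 and 5.91 TPM in siAHCYL1 libraries. TAF1A, a subunit of the RNA polymerase I factor SL1, measured 14.6, 14.6 and 10.8 TPM in siNC and 12.3, 12.6 and 10.3 TPM in siAHCYL1 libraries. The transcript's groups were separate and the gene's overlapped, and the same held for all 9. For TAF1A-AS1, SLC25A21-AS1 and UGDH-AS1 the level rule fixed that separation, since it chose them through the siAHCYL1 libraries. SCAMP1-AS1, whose shared promoter is printed first above, measured 2.47, 2.16 and 1.02 TPM (siNC) and 7.04, 7.94 and 4.13 TPM (siAHCYL1). SCAMP1, a carrier protein of secretory membranes, measured 29.5, 25.7 and 23.9 TPM in siNC and 25.9, 19.6 and 20.5 TPM in siAHCYL1 libraries. The ratio of this pair rose by 1.61 (SE 0.26, adjusted p = 0.00107), with 75 bases between the starts. WDR86-AS1 measured 1.66, 6.72 and 5.04 TPM in siNC and 13.1, 9.14 and 8.53 TPM in siAHCYL1 libraries, and WDR86 measured 18.9, 34.5 and 29.6 TPM (siNC) and 18.4, 23.5 and 26.9 TPM (siAHCYL1). Control library 1 was the lowest for the transcript and among the lowest for the gene, which did not pass, and the ratio rose by 1.39 (SE 0.29). SLC25A21-AS1 measured 0.81, 0.69 and 1.18 TPM in siNC and 3.33, 4.14 and 3.42 TPM in siAHCYL1 libraries. SLC25A21, a mitochondrial carrier of oxodicarboxylates, measured 9.83, 9.59 and 7.07 TPM in siNC and 12.1, 10.8 and 8.7 TPM in siAHCYL1 libraries. The ratio difference was 1.06 (SE 0.26). ST7-AS1 measured 1.59, 2.98 and 1.07 TPM (siNC) and 3.81, 7.39 and 4.91 TPM (siAHCYL1) and ST7 measured 23.7, 16.5 and 15.3 TPM in siNC and 23.7, 21.5 and 17.6 TPM in siAHCYL1 libraries, with a ratio difference of 0.98 (SE 0.33). Leaving out 1 library ended the call of WDR86-AS1 (without siAHCYL1 1, adjusted p 0.0662) and the ratio of ST7-AS1 (without siNC 1 or 3 or siAHCYL1 2 or 3, adjusted p up to 0.125). A single library moved the log2 difference by over 1.5 times, to 0.70 for WDR86-AS1 without siNC 1.

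UGDH-AS1 lies opposite UGDH, the enzyme that makes UDP-glucuronate. It measured 0.56, 1.41 and 0.84 TPM in siNC and 3.8, 2.3 and 3.13 TPM in siAHCYL1 libraries beside 46.2, 40.03 and 40.3 TPM (siNC) and 52, 46.4 and 45.5 TPM (siAHCYL1) for the gene. A1BG-AS1, opposite the gene of a plasma glycoprotein, measured 2.71, 2.71 and 3.0 TPM in siNC and 6.89, 8.11 and 6.2 TPM in siAHCYL1 libraries, with all siAHCYL1 libraries at more than 6 TPM and all controls at 3 TPM or less. A1BG measured 8.63, 14.3 and 12.1 TPM in siNC and 12.6, 14.5 and 12.1 TPM in siAHCYL1 libraries. ARHGAP5-AS1, opposite ARHGAP5, measured 1.19, 3.54 and 2.26 TPM (siNC) and 6.11, 5.91 and 4.68 TPM (siAHCYL1). The gene measured 25.5, 23.4 and 22.7 TPM in siNC and 29.4, 21 and 21.5 TPM in siAHCYL1 libraries, which put its highest library in the siAHCYL1 group and its lowest in the same group. TMPO-AS1 measured 5.77, 5.75 and 4.29 TPM in siNC and 11.8, 12 and 11.2 TPM in siAHCYL1 libraries, a doubling with little spread. TMPO, which encodes the nuclear envelope protein LAP2, measured 159.6, 146 and 127 TPM (siNC) and 145, 125 and 123 TPM (siAHCYL1). The 4 ratios rose by 0.90, 0.91, 1.04 and 1.16 in that order (SE 0.26, 0.19, 0.29 and 0.14). Calls that rest on single libraries were those of the ratio of UGDH-AS1 (without siAHCYL1 1 or 3, adjusted p up to 0.0605) and the ratio of ARHGAP5-AS1 (without siAHCYL1 2, adjusted p 0.057).

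**Figure D4:**
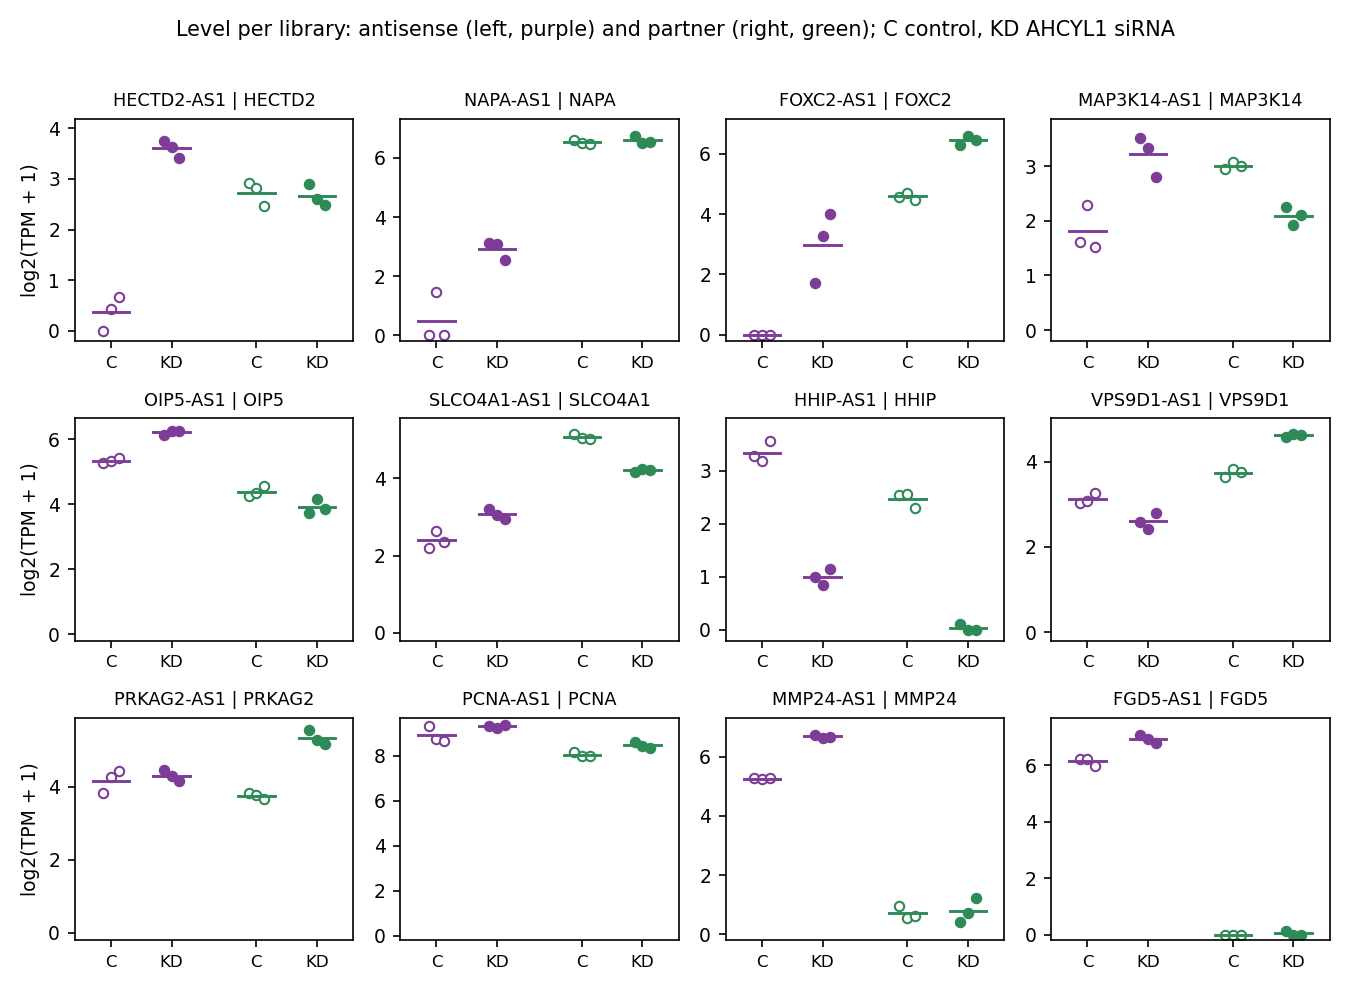
Level in each library as log2(TPM + 1) for 12 antisense transcripts (purple) and their partners (green), open circles siNC (C), filled circles siAHCYL1 (KD), horizontal bars the mean of 3 libraries. HECTD2-AS1 and NAPA-AS1 move without their partners, MAP3K14-AS1, OIP5-AS1 and SLCO4A1-AS1 rise while the partners fall, and HHIP-AS1 falls with HHIP.

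Another 13 transcripts rose by less than that, and their ratio to a partner that did not pass rose too. By RefSeq starts, 6 of them begin head to head with the partner. OSER1-AS1 measured 5.13, 4.29 and 4.64 TPM in siNC and 10.4, 8.68 and 9.05 TPM in siAHCYL1 libraries, roughly double in every siAHCYL1 library. OSER1, a gene induced by oxidative stress, measured 48.2, 45.4 and 42.8 TPM in siNC and 43.5, 42.8 and 38.2 TPM in siAHCYL1 libraries. The ratio rose by 1.00 (SE 0.14, adjusted p = 6.21e-04). NUP50-AS1 measured 6.97, 6.81 and 9.07 TPM (siNC) and 16.4, 13.1 and 11.2 TPM (siAHCYL1) and NUP50, a nuclear pore protein, 88.3, 78.1 and 70.4 TPM in siNC and 71, 66.4 and 65.7 TPM in siAHCYL1 libraries, a ratio difference of 0.96 (SE 0.19). RNASEH1-AS1 measured 13.1, 15.5 and 15.5 TPM in siNC and 26.2, 26.9 and 27.4 TPM in siAHCYL1 libraries, every siAHCYL1 library standing above 26 TPM, and RNASEH1, which degrades RNA in RNA-DNA hybrids, 64.1, 64.5 and 65.5 TPM (siNC) and 62, 61.8 and 67.8 TPM (siAHCYL1). Its ratio rose by 0.85 (SE 0.10). UBL7-AS1 measured 2.31, 2.05 and 2.23 TPM in siNC and 4.19, 3.45 and 3.94 TPM in siAHCYL1 libraries and the ubiquitin-like gene UBL7 72.5, 69.6 and 61.2 TPM in siNC and 67.4, 64.4 and 52.9 TPM in siAHCYL1 libraries, and only the transcript's groups were separate. NIPBL-AS1 measured 3.58, 2.74 and 3.15 TPM (siNC) and 6.36, 5.18 and 5.06 TPM (siAHCYL1), and NIPBL, the loader of cohesin onto chromosomes, 23.6, 23.1 and 21.6 TPM in siNC and 31.6, 24.9 and 23.4 TPM in siAHCYL1 libraries. NCBP2-AS2, which RefSeq lists as protein coding, measured 21.3, 28.3 and 24.1 TPM in siNC and 36.1, 39.8 and 34.2 TPM in siAHCYL1 libraries. NCBP2, the RNA-binding subunit of the nuclear cap-binding complex, measured 149, 143 and 132 TPM (siNC) and 163, 155 and 154 TPM (siAHCYL1) and did not pass. Differences of these last 3 ratios were 0.74, 0.44 and 0.41 (SE 0.19, 0.16 and 0.13). Omitting 1 library also ended the call of the ratio of NIPBL-AS1 (without any of the 6, adjusted p up to 0.135) and the ratio of NCBP2-AS2 (without siNC 1 or siAHCYL1 2 or 3, adjusted p up to 0.109).

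The other 7 overlap their partners by annotated spans, though WAC-AS1 and ZNF561-AS1 have RefSeq starts that lie head to head, outside that window. ZSCAN16-AS1 spans the zinc-finger gene ZSCAN16 and measured 1.86, 0.82 and 0.91 TPM in siNC and 3.48, 3.19 and 2.21 TPM in siAHCYL1 libraries, beside 8.14, 14.2 and 12 TPM in siNC and 10.7, 7.62 and 8.72 TPM in siAHCYL1 libraries for the gene. TNRC6C-AS1 measured 4.78, 4.91 and 5.01 TPM (siNC) and 6.12, 8.34 and 8.22 TPM (siAHCYL1), and TNRC6C, a scaffold of microRNA silencing, 29.5, 32.8 and 31.8 TPM in siNC and 29.8, 25.7 and 25.9 TPM in siAHCYL1 libraries. RefSeq assigns the TNRC6C-AS1 name to the protein-coding gene TMC6, so the row may not be a noncoding RNA. ZNF561-AS1 measured 2.36, 4.46 and 3.4 TPM in siNC and 5.05, 7.7 and 4.49 TPM in siAHCYL1 libraries and the zinc-finger gene ZNF561 15.8, 16.4 and 13.1 TPM (siNC) and 13.9, 11.8 and 11.6 TPM (siAHCYL1). TFAP2A-AS1 measured 3.5, 4.99 and 4.74 TPM in siNC and 7.88, 6.56 and 5.71 TPM in siAHCYL1 libraries, against 51.9, 52.3 and 50.2 TPM in siNC and 54.6, 46.9 and 45.8 TPM in siAHCYL1 libraries for TFAP2A, a transcription factor of the neural crest and melanocytes. The gene's libraries overlapped while the transcript's did not. PIK3CD-AS2 measured 25.3, 20.4 and 24.8 TPM (siNC) and 30.3, 35.1 and 32.2 TPM (siAHCYL1) and stood above PIK3CD, the delta isoform of PI3-kinase, at 13.1, 14.3 and 14.3 TPM in siNC and 13, 12.2 and 12.8 TPM in siAHCYL1 libraries. RNF144A-AS1 measured 12, 13.5 and 11.6 TPM in siNC and 21.9, 16.1 and 16.2 TPM in siAHCYL1 libraries and the ubiquitin ligase gene RNF144A 121, 118 and 111 TPM (siNC) and 141, 125 and 121 TPM (siAHCYL1). WAC-AS1 measured 4.2, 3.71 and 4.03 TPM in siNC and 6.06, 5.1 and 5.06 TPM in siAHCYL1 libraries and WAC, an adaptor in histone H2B ubiquitination, 46.1, 39.8 and 36.6 TPM in siNC and 46, 35.1 and 33.8 TPM in siAHCYL1 libraries. The 7 ratio differences ran from 0.36 for RNF144A-AS1 to 1.16 for ZSCAN16-AS1. When 1 library was omitted, adjusted p passed 0.05 for the ratio of ZSCAN16-AS1 (without siNC 2 or 3 or siAHCYL1 1 or 2, adjusted p up to 0.0832), ZNF561-AS1 (without siNC 1 or 3 or siAHCYL1 1 or 2, adjusted p up to 0.158) and the ratio of ZNF561-AS1 (without siNC 1 or siAHCYL1 2, adjusted p up to 0.074). The call did not hold in all fits without 1 library for TFAP2A-AS1 (without siNC 1 or siAHCYL1 1 or 2, adjusted p up to 0.0761), the ratio of TFAP2A-AS1 (without siAHCYL1 1 or 2, adjusted p up to 0.0566) and the ratio of RNF144A-AS1 (without siNC 1 or 3 or siAHCYL1 1 or 3, adjusted p up to 0.102). Single libraries decided the call of WAC-AS1 (without any of the 6, adjusted p up to 0.122) and the ratio of WAC-AS1 (without siNC 1 or 2 or siAHCYL1 2 or 3, adjusted p up to 0.124).

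In 29 of the 158 pairs both rose, and in 8 of these the ratio shows the antisense transcript rising by more. TMEM9B-AS1 measured 0.42, 0.68 and 1.26 TPM (siNC) and 4.57, 3.83 and 4.94 TPM (siAHCYL1). TMEM9B, a lysosomal membrane protein, measured 28.9, 28.6 and 28.8 TPM in siNC and 42.7, 43.4 and 37.2 TPM in siAHCYL1 libraries. The groups of both were separate, for TMEM9B-AS1 by the level rule that chose it, and the ratio rose by 1.13 (SE 0.24, adjusted p = 0.00458). That p-value is likewise a description. EXOC3-AS1 measured 1.97, 2.26 and 2.06 TPM in siNC and 8.42, 6.3 and 7.69 TPM in siAHCYL1 libraries, with every control under 3 TPM and every siAHCYL1 library above 6 TPM. EXOC3, a subunit of the exocyst that tethers secretory vesicles, measured 30.03, 30.5 and 32.9 TPM (siNC) and 36.9, 37 and 37.7 TPM (siAHCYL1), a far smaller rise. The ratio rose by 1.19 (SE 0.17, adjusted p = 6.12e-04). URB1-AS1 measured 5.7, 9.18 and 3.17 TPM in siNC and 14.5, 21.5 and 17.9 TPM in siAHCYL1 libraries, and URB1, a nucleolar protein of ribosome assembly, 55.7, 54.1 and 53 TPM in siNC and 84.6, 78.2 and 80.5 TPM in siAHCYL1 libraries. NRSN2-AS1 measured 4.48, 2.82 and 3.97 TPM (siNC) and 12.1, 11.5 and 7.87 TPM (siAHCYL1) and NRSN2, a neuronal vesicle membrane protein, 49.5, 55.2 and 55.3 TPM in siNC and 70.7, 65.3 and 66.9 TPM in siAHCYL1 libraries. THAP7-AS1 measured 4.79, 7.69 and 5.13 TPM in siNC and 12.8, 12.9 and 13.5 TPM in siAHCYL1 libraries, beside 276, 251 and 259.6 TPM (siNC) and 285, 307 and 309 TPM (siAHCYL1) for the transcriptional repressor THAP7. TMEM161B-AS1 measured 1.74, 1.17 and 2.64 TPM in siNC and 8.86, 5.38 and 3.98 TPM in siAHCYL1 libraries and TMEM161B 7.51, 6.09 and 7.34 TPM in siNC and 9.18, 12.1 and 8.78 TPM in siAHCYL1 libraries. RALY-AS1 measured 5.19, 4.72 and 3.03 TPM (siNC) and 7.07, 11.3 and 9.56 TPM (siAHCYL1), and RALY, an hnRNP family RNA-binding protein, 112, 129.6 and 134 TPM in siNC and 140.1, 161 and 162 TPM in siAHCYL1 libraries. CTBP1-AS2 measured 15.9, 18.8 and 19.6 TPM in siNC and 28.3, 28 and 24.5 TPM in siAHCYL1 libraries and the corepressor gene CTBP1 205, 208 and 208 TPM (siNC) and 219, 241 and 249 TPM (siAHCYL1). These last 6 ratios rose by 0.36 (CTBP1-AS2) to 0.94 (URB1-AS1). Also dependent on 1 library were EXOC3 (without siNC 1 or 2 or siAHCYL1 2 or 3, adjusted p up to 0.0708), the ratio of URB1-AS1 (without siNC 1 or 3 or siAHCYL1 2 or 3, adjusted p up to 0.0934) and THAP7 (without siNC 2 or 3 or siAHCYL1 2 or 3, adjusted p up to 0.117). The call was lost without 1 library for TMEM161B (without siNC 2 or siAHCYL1 2, adjusted p up to 0.101), the ratio of TMEM161B-AS1 (without siNC 1 or 2 or siAHCYL1 1, adjusted p up to 0.119) and RALY (without siAHCYL1 2 or 3, adjusted p up to 0.065). Leaving out 1 library ended the call of the ratio of RALY-AS1 (without siNC 2 or 3 or siAHCYL1 2 or 3, adjusted p up to 0.127), CTBP1 (without siNC 1, 2 or 3 or siAHCYL1 2 or 3, adjusted p up to 0.129) and the ratio of CTBP1-AS2 (without siNC 1 or 2 or siAHCYL1 1 or 2, adjusted p up to 0.133). A single library moved the log2 difference by over 1.5 times, to 0.51 for the ratio of TMEM161B-AS1 without siAHCYL1 1 and 0.42 for the ratio of RALY-AS1 without siNC 3.

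In 20 of the 29 pairs the ratio did not pass, and the 8 of these with a transcript that at least doubled on the log2(TPM + 1) scale follow. FOXC2-AS1 was listed at 0 in all 3 siNC libraries and at 2.29, 8.6 and 14.9 TPM in the siAHCYL1 libraries, the only one of the 176 at 0 in a whole group. FOXC2, a forkhead factor of mesoderm and lymphatic vessels, measured 22.7, 25 and 21.2 TPM in siNC and 77, 94.3 and 87.2 TPM in siAHCYL1 libraries, a rise of 1.86 (SE 0.10, adjusted p = 1.16e-06). CCDC18-AS1 measured 1.45, 1.25 and 1.35 TPM in siNC and 6.1, 6.48 and 4.74 TPM in siAHCYL1 libraries and CCDC18 7.47, 5.59 and 5.28 TPM (siNC) and 17.8, 13 and 12.3 TPM (siAHCYL1). The groups were separate in both, for CCDC18-AS1 by the level rule that chose it. LBX2-AS1 and its homeobox partner also moved together: 2.15, 3.09 and 3.12 TPM in siNC and 8.25, 6.59 and 6.47 TPM in siAHCYL1 libraries for the transcript and 2.37, 1.53 and 2.68 TPM in siNC and 7.96, 6.04 and 5.39 TPM in siAHCYL1 libraries for LBX2. NNT-AS1 measured 13.2, 14 and 13.2 TPM (siNC) and 30.8, 31.8 and 24.6 TPM (siAHCYL1). NNT, the mitochondrial transhydrogenase that makes NADPH, measured 64.4, 59.6 and 55.4 TPM in siNC and 125, 108 and 109 TPM in siAHCYL1 libraries, and the difference of the ratio was 0.13 (SE 0.13). MLLT4-AS1 measured 1.16, 1.74 and 0.95 TPM in siNC and 4.53, 4.1 and 3.29 TPM in siAHCYL1 libraries and MLLT4, which encodes the junction protein afadin, 65.8, 65.5 and 65.1 TPM (siNC) and 137, 111 and 110.2 TPM (siAHCYL1). TCEB3-AS1 measured 1.06, 3.61 and 1.68 TPM in siNC and 8.69, 5.42 and 4.47 TPM in siAHCYL1 libraries, and TCEB3, which encodes elongin A, 45.1, 41.7 and 43 TPM in siNC and 76.7, 64.3 and 65.9 TPM in siAHCYL1 libraries. SERTAD4-AS1 measured 20.3, 23.1 and 23 TPM (siNC) and 40.3, 51.7 and 46.2 TPM (siAHCYL1) and SERTAD4 35, 31.1 and 27.6 TPM in siNC and 59.4, 46.6 and 43.6 TPM in siAHCYL1 libraries, again with separate groups in both. PSMB8-AS1 measured 1.56, 2.19 and 1.42 TPM in siNC and 5.64, 3.69 and 4.28 TPM in siAHCYL1 libraries, and PSMB8, a catalytic subunit of the immunoproteasome, 39.4, 41.3 and 45.5 TPM (siNC) and 63.8, 61.7 and 58.1 TPM (siAHCYL1). Among the 29, only in the pair of C1RL-AS1 did the ratio fall. The transcript measured 1.24, 1.46 and 1.66 TPM in siNC and 4.14, 4.93 and 3.42 TPM in siAHCYL1 libraries, and C1RL, a serine protease related to complement C1r, measured 8.17, 8.71 and 9.45 TPM in siNC and 35.6, 34 and 34.3 TPM in siAHCYL1 libraries. The ratio fell by 0.80 on the log2 scale (SE 0.19, adjusted p = 0.00764).

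In 10 pairs the antisense transcript rose while the partner fell, and in all 10 the ratio rose. MAP3K14-AS1 (chr17:45247925-45268630, plus strand, GENCODE v29) had the widest gap. It measured 2.08, 3.92 and 1.86 TPM (siNC) and 10.5, 9.08 and 6.02 TPM (siAHCYL1). MAP3K14, the kinase NIK that starts non-canonical NF-kB signalling, measured 6.72, 7.48 and 7.06 TPM in siNC and 3.77, 2.81 and 3.3 TPM in siAHCYL1 libraries. The order of transcript and gene reversed, since the gene stood above the transcript in each control library and below it in each siAHCYL1 library. MAP3K14-AS1 rose by 1.41 (SE 0.24, adjusted p = 0.00114), MAP3K14 fell by 0.92 on the log2 scale (SE 0.13, adjusted p = 4.33e-04), and the ratio rose by 2.33 (SE 0.25, adjusted p = 1.41e-04). OIP5-AS1 (chr15:41283990-41309737, plus strand, GENCODE v29), also called cyrano, is a conserved cytoplasmic RNA known for pairing with miR-7. It measured 37.8, 38.8 and 42.2 TPM in siNC and 69.4, 75.9 and 74.8 TPM in siAHCYL1 libraries. OIP5, which helps deposit CENP-A at centromeres, measured 18.1, 19.2 and 22.6 TPM (siNC) and 12.3, 16.8 and 13.6 TPM (siAHCYL1), and the ratio rose by 1.34 (SE 0.12, adjusted p = 5.89e-05). SLCO4A1-AS1 measured 3.6, 5.27 and 4.15 TPM in siNC and 8.24, 7.3 and 6.77 TPM in siAHCYL1 libraries. SLCO4A1, an organic anion transporter, fell from 34.8, 32.4 and 31.7 TPM to 16.9, 18.1 and 17.6 TPM. The ratio rose by 1.54 (SE 0.18, adjusted p = 2.50e-04). SRP14-AS1, whose promoter is printed above, measured 1.52, 1.23 and 1.23 TPM in siNC and 4.74, 4.18 and 2.28 TPM in siAHCYL1 libraries. SRP14, a subunit of the signal recognition particle, measured 272, 255 and 269 TPM (siNC) and 199, 209 and 209.7 TPM (siAHCYL1), with all siAHCYL1 libraries below all controls. Calls that rest on single libraries were those of OIP5 (without siNC 3, adjusted p 0.0531).

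Of the remaining 6, FEZF1-AS1 measured 7.95, 8.69 and 10.04 TPM in siNC and 11, 12.3 and 10.8 TPM in siAHCYL1 libraries and was close in the controls to FEZF1, a zinc-finger factor of the forebrain. FEZF1 went from 9.61, 8.84 and 7.83 TPM to 3.43, 3.63 and 4.76 TPM and stood below it in every siAHCYL1 library. AGAP2-AS1 measured 35.6, 26.9 and 25.5 TPM in siNC and 39.5, 39.6 and 37.6 TPM in siAHCYL1 libraries, and AGAP2, a GTPase that enhances PI3-kinase, 3.45, 4.63 and 4.76 TPM (siNC) and 2.9, 2.81 and 2.34 TPM (siAHCYL1). BAIAP2-AS1 measured 8.68, 12.7 and 13.2 TPM in siNC and 16.6, 17.5 and 18.1 TPM in siAHCYL1 libraries against 5.3, 6.56 and 5.91 TPM in siNC and 3.01, 4.09 and 4.4 TPM in siAHCYL1 libraries for BAIAP2, the actin regulator IRSp53. In these 2 pairs the antisense transcript was the more abundant in every library. STARD4-AS1 measured 2.5, 2.96 and 2.4 TPM (siNC) and 3.9, 3.56 and 3.69 TPM (siAHCYL1), and STARD4, a cholesterol transfer protein, 8.16, 7.47 and 7.55 TPM in siNC and 4.72, 4.3 and 3.64 TPM in siAHCYL1 libraries. TMEM147-AS1 measured 2.32, 1.94 and 3.2 TPM in siNC and 6.28, 6.39 and 4.87 TPM in siAHCYL1 libraries and TMEM147, a membrane protein of the endoplasmic reticulum, 104, 127 and 133 TPM (siNC) and 95.6, 102 and 106 TPM (siAHCYL1). The gene's groups overlapped although it passed the test. PAXIP1-AS1 measured 5.23, 4.2 and 5.84 TPM in siNC and 8.76, 7.36 and 9.19 TPM in siAHCYL1 libraries, and PAXIP1, a BRCT-domain protein of the DNA damage response, 49.9, 45.1 and 38.8 TPM in siNC and 38.2, 34.1 and 31.1 TPM in siAHCYL1 libraries. These 6 ratios rose by 0.92 (AGAP2-AS1) to 1.31 (FEZF1-AS1). Omitting 1 library also ended the call of FEZF1-AS1 (without siNC 1 or 2 or siAHCYL1 1, 2 or 3, adjusted p up to 0.156), AGAP2-AS1 (without siNC 2 or 3, adjusted p up to 0.0682) and AGAP2 (without siNC 2 or 3 or siAHCYL1 3, adjusted p up to 0.0758). When 1 library was omitted, adjusted p passed 0.05 for BAIAP2 (without siNC 2, adjusted p 0.0691), STARD4-AS1 (without siNC 1 or 3 or siAHCYL1 1, 2 or 3, adjusted p up to 0.121) and TMEM147 (without siNC 2 or 3 or siAHCYL1 1, 2 or 3, adjusted p up to 0.157). The call did not hold in all fits without 1 library for PAXIP1 (without siNC 1 or 2 or siAHCYL1 2 or 3, adjusted p up to 0.0765).

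A further 3 transcripts at least doubled, on the log2(TPM + 1) scale, beside a partner that was barely detected. CD27-AS1 measured 1.85, 2.82 and 4.7 TPM (siNC) and 6.19, 8.06 and 7.73 TPM (siAHCYL1), while CD27, a lymphocyte receptor of the TNF receptor family, was at 0 in 5 libraries and 0.13 TPM in the other. CKMT2-AS1 measured 0.91, 1.33 and 1.44 TPM in siNC and 4.25, 4.97 and 3.59 TPM in siAHCYL1 libraries, and CKMT2, the mitochondrial creatine kinase of striated muscle, was listed at 0 in all 6. SDCBP2-AS1 measured 1.71, 0.77 and 1.03 TPM in siNC and 3.35, 4.34 and 2.7 TPM in siAHCYL1 libraries, and the syntenin-2 gene SDCBP2 at most 1.13 TPM. They rose by 1.07, 1.24 and 1.05 (SE 0.23, 0.17 and 0.21). In all, 12 of the 176 had a partner averaging under 1 TPM.

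Of the 176, 13 antisense transcripts fell. The largest fall was HHIP-AS1 (chr4:144642922-144661357, minus strand, GENCODE v29), whose promoter is shared with HHIP, a secreted inhibitor of hedgehog signalling. HHIP-AS1 measured 8.71, 8.01 and 10.8 TPM (siNC) and 1.0, 0.79 and 1.21 TPM (siAHCYL1). HHIP measured 4.8, 4.86 and 3.91 TPM in siNC and 0.08, 0 and 0 TPM in siAHCYL1 libraries, so its siAHCYL1 libraries were at or next to 0. HHIP-AS1 fell by 2.34 on the log2 scale (SE 0.16, adjusted p = 5.02e-06), HHIP fell by 2.42 (SE 0.17, adjusted p = 5.63e-06), and the ratio difference was 0.08 (SE 0.24). These values are of log2(TPM + 1), which understates the fall of a gene that ends near 0. In TPM, HHIP fell by the larger factor. HHIP-AS1 met the level rule through the siNC libraries only, so its p-value describes a transcript chosen by that group. ZNF790-AS1 fell beside the zinc-finger gene ZNF790. The transcript measured 2.4, 3.9 and 3.07 TPM in siNC and 1.42, 0.69 and 0.38 TPM in siAHCYL1 libraries and the gene 6.38, 4.19 and 4.47 TPM (siNC) and 4.45, 4.87 and 2.59 TPM (siAHCYL1), whose groups overlapped. VPS9D1-AS1 was the only transcript to fall while its partner rose, from 7.1, 7.37 and 8.56 TPM to 4.99, 4.38 and 5.93 TPM. VPS9D1 went from 11.5, 13.2 and 12.6 TPM to 22.9, 24.2 and 23.8 TPM, and the ratio fell by 1.39 on the log2 scale (SE 0.16, adjusted p = 2.18e-04). STXBP5-AS1, the fifth most abundant, measured 43.8, 47.7 and 48.7 TPM in siNC and 36.9, 27.2 and 28.6 TPM in siAHCYL1 libraries. STXBP5, which encodes tomosyn, an inhibitor of SNARE assembly, measured 102, 107 and 98.7 TPM in siNC and 117, 100.1 and 96.7 TPM in siAHCYL1 libraries and overlapped. Single libraries decided the call of the ratio of ZNF790-AS1 (without siNC 2 or 3 or siAHCYL1 2 or 3, adjusted p up to 0.117) and VPS9D1-AS1 (without siAHCYL1 2, adjusted p 0.0508).

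FBXO22-AS1 measured 24.2, 22.3 and 30.8 TPM (siNC) and 21.7, 16.2 and 11.5 TPM (siAHCYL1), and FBXO22, the F-box subunit of a ubiquitin ligase, 19.7, 19.5 and 16.8 TPM in siNC and 22.1, 19.8 and 21.3 TPM in siAHCYL1 libraries. This transcript stood above its partner in every control and below it in every siAHCYL1 library. H1FX-AS1 measured 2.3, 5.33 and 4.45 TPM in siNC and 1.93, 2.39 and 1.59 TPM in siAHCYL1 libraries beside the linker histone gene H1FX at 342, 389 and 420.5 TPM (siNC) and 339, 468 and 465 TPM (siAHCYL1). Its groups overlapped, because 1 control lay among the siAHCYL1 libraries. EP300-AS1 measured 7.71, 8.72 and 8.84 TPM in siNC and 5.8, 4.66 and 7.19 TPM in siAHCYL1 libraries, and EP300, a histone acetyltransferase, 48.3, 49.9 and 45.3 TPM in siNC and 57.4, 49.9 and 47.1 TPM in siAHCYL1 libraries. PRR7-AS1 measured 7.77, 7.04 and 6.45 TPM (siNC) and 4.92, 3.97 and 5.96 TPM (siAHCYL1) and PRR7 47.2, 57 and 52.9 TPM in siNC and 56.2, 58.8 and 65.9 TPM in siAHCYL1 libraries. In these 4 pairs the ratio fell by between 0.57 (EP300-AS1) and 0.85 (H1FX-AS1) on the log2 scale. The other 5 that fell, DLX6-AS1, FOXD2-AS1, MAFG-AS1, PTOV1-AS1 and SMARCA5-AS1, changed by -0.75 to -0.31. Also dependent on 1 library were FBXO22-AS1 (without siNC 3 or siAHCYL1 3, adjusted p up to 0.0776), the ratio of FBXO22-AS1 (without siNC 3 or siAHCYL1 3, adjusted p up to 0.054) and H1FX-AS1 (without siNC 2 or 3 or siAHCYL1 1 or 3, adjusted p up to 0.123). The call was lost without 1 library for the ratio of H1FX-AS1 (without siNC 2 or 3 or siAHCYL1 3, adjusted p up to 0.0818), EP300-AS1 (without siNC 2 or 3 or siAHCYL1 2, adjusted p up to 0.103) and the ratio of EP300-AS1 (without siNC 2 or 3 or siAHCYL1 1 or 2, adjusted p up to 0.114). Leaving out 1 library ended the call of PRR7-AS1 (without siNC 1 or 2 or siAHCYL1 1 or 2, adjusted p up to 0.118), the ratio of PRR7-AS1 (without siAHCYL1 2, adjusted p 0.0513) and MAFG-AS1 (without siNC 1, 2 or 3 or siAHCYL1 2 or 3, adjusted p up to 0.105). Calls that rest on single libraries were those of SMARCA5-AS1 (without siNC 2 or 3 or siAHCYL1 1 or 3, adjusted p up to 0.078). A single library moved the log2 difference by over 1.5 times, to -0.42 for FBXO22-AS1 without siAHCYL1 3.

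In 11 further pairs the ratio changed although the transcript did not pass, and 5 of these ratios fell. PRKAG2-AS1 measured 13.1, 18.1 and 20.3 TPM in siNC and 20.9, 18.4 and 16.9 TPM in siAHCYL1 libraries, with groups that overlapped. PRKAG2, a regulatory subunit of AMP-activated kinase, rose from 13.1, 12.7 and 11.6 TPM to 45.3, 37.9 and 35 TPM and stood far above its antisense transcript in every siAHCYL1 library. The ratio fell by 1.44 on the log2 scale (SE 0.18, adjusted p = 2.85e-04). RAB30-AS1 measured 4.6, 5.72 and 2.47 TPM (siNC) and 1.84, 2.4 and 2.67 TPM (siAHCYL1), and RAB30, a small GTPase of the Golgi, 0.69, 1.24 and 0.83 TPM in siNC and 2.62, 2.48 and 2.3 TPM in siAHCYL1 libraries. It was the only pair with a shared promoter window whose ratio fell, by 1.49 on the log2 scale (SE 0.27, adjusted p = 0.00191). CIRBP-AS1 measured 7.26, 11.7 and 9.22 TPM in siNC and 7.96, 5.25 and 6.38 TPM in siAHCYL1 libraries, and CIRBP, a cold-inducible RNA-binding protein, 57.4, 90.1 and 102 TPM (siNC) and 90.6, 171 and 171 TPM (siAHCYL1). Both overlapped between groups, siAHCYL1 library 1 of the gene lying among the controls. NUTM2B-AS1 measured 7.33, 12.7 and 5.65 TPM in siNC and 9.33, 9.24 and 8.21 TPM in siAHCYL1 libraries and NUTM2B 0.6, 0.75 and 0.56 TPM in siNC and 1.47, 3.1 and 2.69 TPM in siAHCYL1 libraries. TOPORS-AS1, now the small membrane protein gene SMIM27 in RefSeq, measured 2.64, 1.77 and 2.58 TPM (siNC) and 2.37, 0.6 and 0.22 TPM (siAHCYL1), and TOPORS, a ubiquitin and SUMO ligase, 19.9, 15.5 and 14.1 TPM in siNC and 24.3, 21.4 and 17.8 TPM in siAHCYL1 libraries. Neither of these last 2 transcripts separated the groups. Their ratios fell by 0.91 and 1.16 on the log2 scale (SE 0.31 and 0.31). Omitting 1 library also ended the call of CIRBP (without siNC 1 or 2 or siAHCYL1 2 or 3, adjusted p up to 0.108), the ratio of CIRBP-AS1 (without siNC 2 or siAHCYL1 2 or 3, adjusted p up to 0.0588) and the ratio of NUTM2B-AS1 (without siNC 1 or 2 or siAHCYL1 2 or 3, adjusted p up to 0.116).

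The other 6 ratios rose. MIF-AS1 measured 5.52, 4.67 and 6.61 TPM in siNC and 5.37, 4.66 and 6.16 TPM in siAHCYL1 libraries. MIF, a cytokine and by far the most abundant partner, fell from 3567, 3280 and 3228 TPM to 1883, 1958 and 2074 TPM. The transcript's groups overlapped and the ratio rose by 0.73 (SE 0.17, adjusted p = 0.0084). GATA2-AS1 measured 8.93, 8.37 and 7.31 TPM (siNC) and 7.8, 7.76 and 8.1 TPM (siAHCYL1), while GATA2, a transcription factor of blood and endothelium, fell from 29.9, 28.3 and 30.1 TPM to 18, 17.4 and 17.9 TPM. IDH1-AS1 ranged widely in the controls, at 0, 3.8 and 9.25 TPM, and measured 10.1, 13.4 and 6.62 TPM in siAHCYL1 libraries. IDH1, the cytosolic isocitrate dehydrogenase, measured 227, 222 and 202 TPM in siNC and 164, 149.9 and 142 TPM in siAHCYL1 libraries, and the ratio rose by 2.05 (SE 0.72, adjusted p = 0.0432). EIF3J-AS1 measured 4.8, 4.16 and 3.22 TPM in siNC and 5.07, 5.9 and 5.93 TPM in siAHCYL1 libraries and the translation initiation factor gene EIF3J 59.4, 68.8 and 61.2 TPM (siNC) and 58.3, 57 and 52.5 TPM (siAHCYL1). LHX4-AS1 measured 1.58, 2.03 and 1.4 TPM in siNC and 2.48, 3.11 and 2.13 TPM in siAHCYL1 libraries, and LHX4, a LIM homeobox factor of the pituitary, 5.12, 5.81 and 4.51 TPM in siNC and 2.99, 6.22 and 2.64 TPM in siAHCYL1 libraries. TMCC1-AS1 measured 1.36, 2.52 and 2.08 TPM (siNC) and 3.56, 3.09 and 2.47 TPM (siAHCYL1) and TMCC1, a membrane protein of the endoplasmic reticulum, 8.64, 8.37 and 8.25 TPM in siNC and 8.18, 6.94 and 5.49 TPM in siAHCYL1 libraries. For these 3, neither row passed and the ratio did. When 1 library was omitted, adjusted p passed 0.05 for the ratio of IDH1-AS1 (without siNC 2 or siAHCYL1 1, 2 or 3, adjusted p up to 0.114), the ratio of EIF3J-AS1 (without siNC 2 or 3 or siAHCYL1 2 or 3, adjusted p up to 0.109) and the ratio of LHX4-AS1 (without siAHCYL1 1 or 3, adjusted p up to 0.0626). The call did not hold in all fits without 1 library for the ratio of TMCC1-AS1 (without siNC 1 or siAHCYL1 2 or 3, adjusted p up to 0.0614). A single library moved the log2 difference by over 1.5 times, to 1.08 for the ratio of IDH1-AS1 without siNC 1.

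The other 100 transcripts averaged 1.63 to 30.6 TPM. Of these 23 rose, by 0.33 to 0.99, among them 12 whose partner also rose, such as TPT1-AS1, FLG-AS1, RBM5-AS1 and PAX8-AS1. The 72 that did not pass had differences from -0.65 to 1.35 with a median of 0.14, the highest being CERS6-AS1, whose libraries spread from 0 to 6.15 TPM. No partner row was found for 6 transcripts, HOXC-AS1, HOXD-AS2, JHDM1D-AS1, KANSL1-AS1, MFI2-AS1 and RPARP-AS1, and of them KANSL1-AS1 and MFI2-AS1 rose. Single libraries decided the call of TPT1-AS1 (without siAHCYL1 2, adjusted p 0.0616), TPT1 (without siNC 2 or 3 or siAHCYL1 2, adjusted p up to 0.0652) and MFI2-AS1 (without siNC 1 or 2 or siAHCYL1 2 or 3, adjusted p up to 0.0696). The call of GABPB1-AS1 was lost without any of the 6 (adjusted p up to 0.135). It was lost in 5 such fits for ASH1L-AS1, BOLA3-AS1 and MMP25-AS1 (adjusted p up to 0.179) and in 4 for COX10-AS1 and DGUOK-AS1 (up to 0.147). AZIN1-AS1 lost it in 3 fits (up to 0.106) and MAN1B1-AS1 in 2 (up to 0.0639).

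Positions were found for 175 of the 176 transcripts, and the arrangement of transcript and partner for 170 pairs. The counts below stand beside 30.4% higher and 21.2% lower over all genes tested and 47.7% of ratios changed over all pairs. They include the 20 transcripts that met the level rule through 1 group only, of which 17 rose and 3 fell. The shares of called transcripts can therefore be raised by that rule, and shares without these 20 were not counted. Where the 2 genes overlap at their starts (66 transcripts), 37 rose (56.1%) and 5 fell. The partners of these rose in 24 (38.1%) and fell in 8 (12.7%) of 63 tested, and the changes of transcript and partner had a Pearson r of 0.56 and a Spearman rank correlation of 0.35. The largest rise and fall here were those of FOXC2-AS1 and HHIP-AS1, whose partners moved the same way. Both transcripts were chosen through 1 group, and r without these pairs was not computed. Where the starts face away from each other within 1000 bases without overlap (29 transcripts, median distance 110 bases), 16 rose (55.2%) and 0 fell, 12 of 29 ratios rose and 1 fell, and r was -0.06. By these spans, the changes of transcript and partner did not run together across pairs in that second arrangement. Pairs that overlap at their starts can share exon bases, and the part of shared reads in their r was not tested. The arrangement comes from GENCODE v29 spans, so some pairs counted as overlapping at their starts, such as HHIP-AS1 and HHIP, have RefSeq starts that lie apart. By RefSeq starts that pair is head to head, and r with such pairs moved to the second arrangement was not computed. Among 28 transcripts that start inside the partner, 7 rose (25%, near the share of all genes) and 3 fell, their partners rose in 5 (20%) and fell in 11 (44%) of 25 tested, and the partners' median difference was -0.29. Where the genes overlap at their ends (33 transcripts), 11 rose (33.3%, also near it) and 2 fell, and of 12 that span the partner 7 rose and 1 fell. Differences between these arrangements were not tested.

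**Figure D5:**
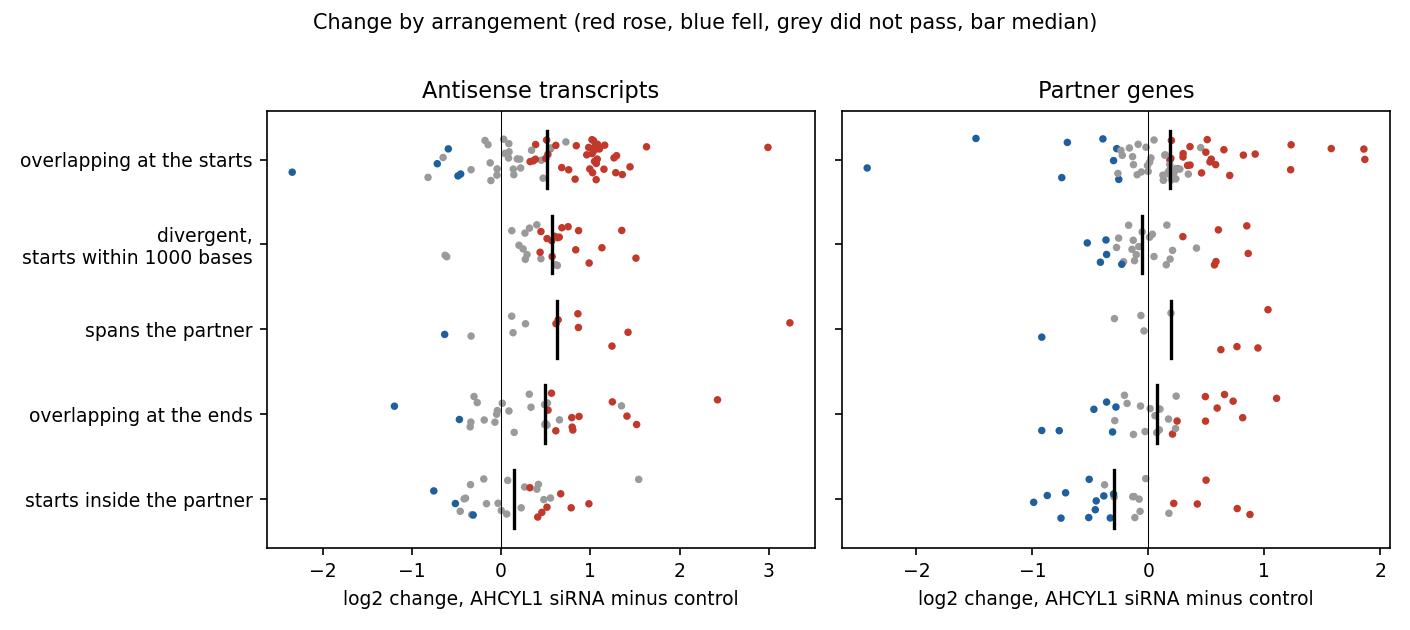
Log2 change of antisense transcripts (left) and of their partners (right) by how the genes lie to each other, 1 point per gene, red where it rose, blue where it fell, grey where it did not pass, black bars the median. Among transcripts whose starts face away within 1000 bases 16 rose and 0 fell, and 11 of 25 partners of transcripts that start inside them fell.

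Exons shared with the other strand were the rule rather than the exception, with 119 transcripts sharing exon bases with the partner. In 37 transcripts no exon base lay under an exon of the opposite strand, and of these 17 rose (45.9%) and 2 fell. Up to 25% of the exon bases was covered in 81, of which 38 rose (46.9%) and 6 fell, and more in 53, of which 23 rose (43.4%) and 3 fell. These shares were not tested against each other. Among pairs sharing no exon base, 17 ratios rose and 4 fell, counts given without a share and so not comparable with the 47.7% over all pairs. Transcripts that rose had a median of 2666.5 annotated exon bases and 4 exons, those that did not pass 2336.5 bases and 4 exons. Other opposite-strand neighbours changed their ratio in 49.2% of 2248 pairs, against 33.2% of 220 pairs of any antisense-named row with its partner.

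Promoter windows (250 bases before to 50 after the RefSeq start) of the 137 matched transcripts were rich in GC, with a median of 65.0%, between 67.0% for partners and 58.3% for all 27305 RefSeq promoters. Their median CpG ratio, observed over expected from the base composition, was 0.81, beside 0.87 for partners and 0.58 for all. The SP1 GC box (GGGCGG), searched on both strands, was in 62.8% of the windows of the transcripts and 44.6% of all promoters. A core ETS site (CCGGAAG) was in 19.0% and 10.7%, and the NRF1 core (GCATGCG) in 9.49% and 4.13%. The TATA box (TATAAA) was in 5.11% and 12%, the CCAAT box (CCAAT) in 33.6% and 35.7%, the CRE (TGACGTCA) in 3.65% and 1.98%, and an E2F site (TTTGGCGC) in 1.46% and 0.66%. In the 144 matched partner windows the GC box was in 70.1%, the ETS core in 14.6%, the NRF1 core in 5.56% and the TATA box in 6.94%. The CCAAT box was in 31.9% of them, the CRE in 6.94% and the E2F site in 2.08%. No motif searched contains another. Split by call, the windows of the 70 matched transcripts that rose held the GC box in 72.9%, the CCAAT box in 25.7%, the ETS core in 27.1%, the NRF1 core in 10%, the TATA box in 4.29%, and the CRE and E2F site in 1.43% each. In the 58 that did not pass these were 55.2%, 44.8%, 10.3%, 10.3%, 6.90%, 5.17% and 1.72% in the same order. Of the 9 that fell, 33.3% held the GC box, 22.2% the CCAAT box, 11.1% the ETS core, 11.1% the CRE, and none the other 3. No difference between these sets was tested, and those that rose or fell include transcripts chosen through the group where they are high. Windows of 28 head-to-head pairs also contain the partner's start, 16 of these transcripts rose and 1 fell, and 6 of the partners rose and 3 fell. Of the printed stretches, that of SRP14-AS1 holds the CCAAT and GC boxes, those of SCAMP1-AS1 and OSER1-AS1 the GC box, that of RAB30-AS1 a CCAAT box, that of MAN1B1-AS1 the GC box and the NRF1 core, that of HHIP-AS1 the GC box and the CRE, and that of HECTD2-AS1 a CCAAT box, while PCNA-AS1 holds none of the motifs. A match is a run of letters and says nothing of binding.

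The listed genes of RNA decay and editing, processes that act on many antisense RNAs, showed no single direction. Of 42 listed genes, all tested, 10 rose (23.8%) and 7 fell (16.7%), below the 30.4% and 21.2% of all genes, and their median difference was -0.03. SMG5, a factor of nonsense-mediated decay, measured 156, 153 and 151 TPM in siNC and 116, 112 and 114 TPM in siAHCYL1 libraries and fell by 0.42 on the log2 scale (SE 0.06). EXOSC5, a core subunit of the RNA exosome, measured 72.5, 77.2 and 69.4 TPM (siNC) and 53.6, 47.3 and 51.2 TPM (siAHCYL1) and fell by 0.52 (SE 0.08). EXOSC6, of the same ring, went the other way at 30.2, 40.2 and 38 TPM in siNC and 54.2, 63.7 and 64.3 TPM in siAHCYL1 libraries, a rise of 0.74 (SE 0.12). SRRT, which couples the cap-binding complex to decay, measured 198, 192 and 195 TPM in siNC and 149, 162 and 157 TPM in siAHCYL1 libraries and fell by 0.32 (SE 0.06).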

How the data were processed

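Total RNA of HMCB cells was sequenced as 6 non-directional libraries, per the labels' protocols. The authors deposited 1 table of TPM values, made with STAR and RSEM on GRCh38 per the submitters' processing notes. No source used here states the versions of the tools or which annotation was counted. TPM carries no read depth, so no counting interval is given. RSEM divides reads that fit several transcripts by estimation, which bears on antisense rows that share exon bases with a partner in unstranded libraries.

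Columns were assigned to siNC or siAHCYL1 by label. The 13266 genes that reached 1 TPM in 3 or more of the 6 libraries were tested on log2(TPM + 1) with limma 3.58.1 (intensity trend, R 4.3.3), p-values adjusted over all of them by Benjamini-Hochberg, threshold 0.05. Ratios were fitted the same way, as the difference of the log2 values per library, over 2468 opposite-strand pairs. Both fits were tested on simulated data. Because 1 is added before the log, differences of scarce transcripts are understated. Arrangements came from GENCODE v29, with RefSeq spans for transcripts that GENCODE lacks, and promoters and sequences from RefSeq GRCh38.p14.

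Given in full were transcripts that passed with a log2 difference of at least 1 in size or whose ratio changed, the 5 most abundant, and their partners. From the decay list up to 4 changed genes were named, smallest adjusted p first. The members and lists were chosen with earlier results of these data known. Alternatives were another pseudocount, no filter, 2 other scalings, a replicate block, robust moderation and leaving out each library. Chosen after seeing the data were leaving out both first replicates, and limits to transcripts or pairs without shared exon bases.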

Additional observations from a re-analysis of the deposited data

How the results depend on the processing

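With each library left out in turn, antisense transcripts changed numbered 76 to 91 (67 to 78 higher, 9 to 14 lower), partner genes changed 57 to 80 (37 to 47 higher, 19 to 34 lower, the 19 without siNC 2), and antisense to partner ratios changed 45 to 57. Of 92 antisense calls 68 held in every such fit, of 77 partner calls 54, and of 61 ratio calls 36. Under the other 6 planned fits 72, 61 and 51 of them held, and no called change reversed. Without a filter on low values 7 antisense transcripts were lower in place of 13, over more genes tested. Of transcripts averaging at least 5 TPM, 50 changed, 40 of them higher. Of the 37 transcripts with no exon base under an opposite-strand exon 19 changed, 17 higher and 2 lower. Of pairs that share no exon base 21 ratios changed, 17 higher and 4 lower. These limits leave fewer transcripts. For the 5 TPM limit and these pairs no share is given, so their counts cannot be set beside the 51.6% of genes and 47.7% of ratios that changed. Libraries with the same replicate number deviated together with correlations of 0.23, 0.001 and 0.15, so the numbers were not taken to pair the samples. With the replicate block 98 antisense transcripts, 95 partner genes and 68 ratios changed. What counting error limits could not be computed from TPM, and most of these transcripts lie under 10 TPM.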

Other observations

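The table also holds antisense rows named with -AS and no number, which fall outside the rule. There were 4 at the same level, BACE1-AS, CTBP1-AS, MKLN1-AS and PINK1-AS, and none passed the test. BACE1-AS, opposite the beta-secretase gene, averaged 7.26 ± 0.71 TPM (SD, n = 3) in siNC and 6.72 ± 0.61 TPM (SD, n = 3) in siAHCYL1 libraries. PINK1-AS, opposite a kinase of mitochondrial quality control, averaged 14 ± 1.15 TPM and 12 ± 1.19 TPM, with groups that overlapped. Differences of the 4 on the log2 scale ran from -0.21 (PINK1-AS) to 0.08 (MKLN1-AS).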
